A study of Rattus norvegicus with 18 samples.

Results

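The comparison described here is that of primary rat astrocytes exposed to Aβ42 fibrils with untreated astrocytes. It rests on 6 of the 18 libraries of the series, the 3 titled as Aβ42-treated astrocytes and the 3 titled as control astrocytes, chosen by those titles alone. All 6 came from cortical astrocytes of Sprague–Dawley rat pups at postnatal day 2, grown in culture, shaken to free them of microglia and of oligodendrocyte precursors, and kept in serum-free medium before treatment. The treated cells received Aβ42 fibrils at 25 µM for 24 h, and the controls received none. Aβ42 is the longer of the main amyloid-β peptides, and its fibrils are the material of the amyloid plaque. The labels do not say whether the 3 libraries of a group came from separate litters or cultures, so p-values measure the spread between these libraries only. Poly(A) RNA was sequenced from whole cultures, so that a value is an average over the cells of a dish. In such bulk samples, fewer cells of a type and less RNA per cell cannot be told apart. The other libraries of the series hold astrocytes with Aβ40 fibrils, used here only for the spread between replicates, and microglia, used only for the level of a gene in the other cell type.

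Astrocytes clear glutamate and potassium from around synapses, feed neurons with lactate and cholesterol, and secrete factors that shape synapses and matrix. When they meet cytokines or debris they become reactive. NF-κB, a transcription factor held in the cytoplasm by inhibitors of the IκB family, then drives chemokines, adhesion molecules and its own inhibitors. Interferons signal through JAK kinases to STAT and IRF factors, which bind the interferon-stimulated response element (ISRE) in the promoters of antiviral and antigen-presentation genes. In dividing cells, genes of mitosis are held down between divisions through the CHR element (cell cycle genes homology region) and driven through CCAAT boxes.

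The control libraries held 3674043, 3949126 and 13768995 counts on genes and the Aβ42 libraries 14839572, 10120352 and 8333014. Levels are given throughout as CPM, the usual scale on which the counts of a gene are set against the total of its library, here with the TMM factors of edgeR, and 3 counts, the limit below which a gene is treated as not detected, came to 0.206 to 0.835 CPM. Control replicate 2 had the highest share of counts off genes, 34.2%, against 26.4% to 28.9% in the other 5. Its table and that of Aβ42 replicate 3 are also named in another style than the rest, and some values below are also given without it.

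The astrocyte identity of the cultures was plain in the levels of its markers. Summed over 14 astrocyte markers, the level was 10300 to 12600 CPM in control and 6280 to 6410 CPM with Aβ42, while the microglia libraries of the series held 286 to 350 CPM. Markers of other cells were present too. The 25 microglia markers summed to 979 to 1090 CPM in control and 396 to 409 CPM with Aβ42, which was 5.21% and 4.25% of their summed level in the control and the Aβ42 microglia libraries. Oligodendrocyte lineage markers summed to 3500 to 4700 CPM in control and 2890 to 3180 CPM with Aβ42, neuron markers to 915 to 984 CPM and 506 to 520 CPM, fibroblast and meningeal markers to 357 to 386 CPM and 265 to 327 CPM, and endothelial and mural markers to 66.1 to 98.6 CPM and 48.2 to 58.3 CPM. Of the endothelial markers Cldn5 and Emcn were at 0 counts in all 6 libraries, while Vwf was at 12, 11.2 and 14.8 CPM in control and 7.35, 6.57 and 7.09 CPM with Aβ42 and Cdh5 at 3.9, 3.11 and 1.55 CPM and 0.618, 0.202 and 0.36 CPM. Of the 11 endothelial and mural markers tested, 5 fell (45.5%) and 2 rose (18.2%, near the 16.5% of all genes). Abcb1a rose from 0.835, 0.479 and 0.563 CPM to 6.04, 7.28 and 6.73 CPM, and Flt1 had a log2 fold change of 0.94. Pecam1 and Kdr were among those not called.

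**Figure D1:**
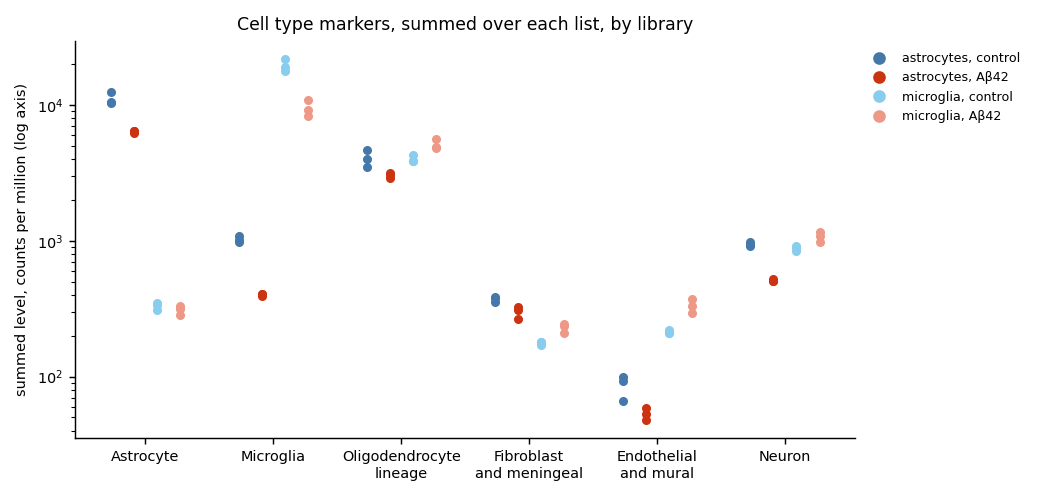
Each point is the level of a cell type marker list summed in 1 library, in CPM on a log axis, for the 3 control and 3 Aβ42 libraries of astrocytes and of microglia; the astrocyte and the microglia libraries were scaled separately. The microglia markers lie at 979 to 1090 CPM in control astrocytes and at 396 to 409 CPM with Aβ42, below the 8310 to 22000 CPM of the microglia libraries.

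Among the microglia markers themselves, 18 of the 24 tested fell and 2 rose. The fractalkine receptor Cx3cr1 was at 25.1, 34.2 and 18.8 CPM in the control libraries and at 0.0687, 0 and 0 CPM with Aβ42, and the colony-stimulating factor receptor Csf1r fell from 124, 113 and 134 CPM to 6.04, 4.55 and 4.32 CPM (log2 fold change -4.61 ± 0.18). The 2 that rose were Adgre1, the F4/80 antigen, from 18.9, 18.7 and 21.5 CPM to 141, 149 and 152 CPM (log2 fold change 2.89 ± 0.14), and Siglec5 (1.53 ± 0.24). The same markers moved in the microglia cultures: Cx3cr1 was at 31.7 to 43.7 CPM in control microglia and 0.219 to 0.402 CPM with Aβ42, and Adgre1 at 2160 to 2940 CPM and 3030 to 3200 CPM. The part of the remaining microglia in the results that follow was not tested. For some genes the level in the microglia libraries is given beside the result. Genes given without it may be expressed in microglia too.

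Across all 11690 genes tested, Aβ42 fibril treatment changed a large part of the transcriptome in both directions. By edgeR's quasi-likelihood test, with p-values adjusted after Benjamini and Hochberg, 1933 genes stood higher (16.5%) and 2388 lower (20.4%) at an adjusted p under 0.05. Those shares are the background for the counts of list members given below. At 2-fold or more 935 were higher (8.0%) and 1381 lower (11.8%), and at 5-fold or more 354 were higher (3.03%) and 379 lower (3.24%). Without control replicate 2 the genes at an adjusted p under 0.05 numbered 2617 higher and 2939 lower of 11859, and those at 2-fold 949 and 1442. Without it lower members went from 2 to 4 in the TNF superfamily list, from 1 to 2 in each of the interleukin, NF-κB, iron and circadian lists and from 0 to 1 among STAT, SOCS and IRF factors, and higher members from 8 to 13 in the TGF-β pathway, from 4 to 2 among synapse and neurite factors and from 0 to 2 among actin genes. The 3 control and the 3 Aβ42 libraries did not overlap in 5342 genes (45.7%), which include 929 of the 935 genes higher at 2-fold and 1335 of the 1381 lower at 2-fold. The median log2 fold change of all genes was -0.005, so the changes given here are relative to a centre near 0. A value with ± given in brackets after a gene is its log2 fold change, Aβ42 over control, with its standard error in that fit (3 libraries per group). Genes higher at 2-fold took up 3.04% to 3.25% of the counts in control and 13.8% to 14.2% with Aβ42, and genes lower at 2-fold 9.04% to 9.94% and 3.24% to 3.33%.

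**Figure D2:**
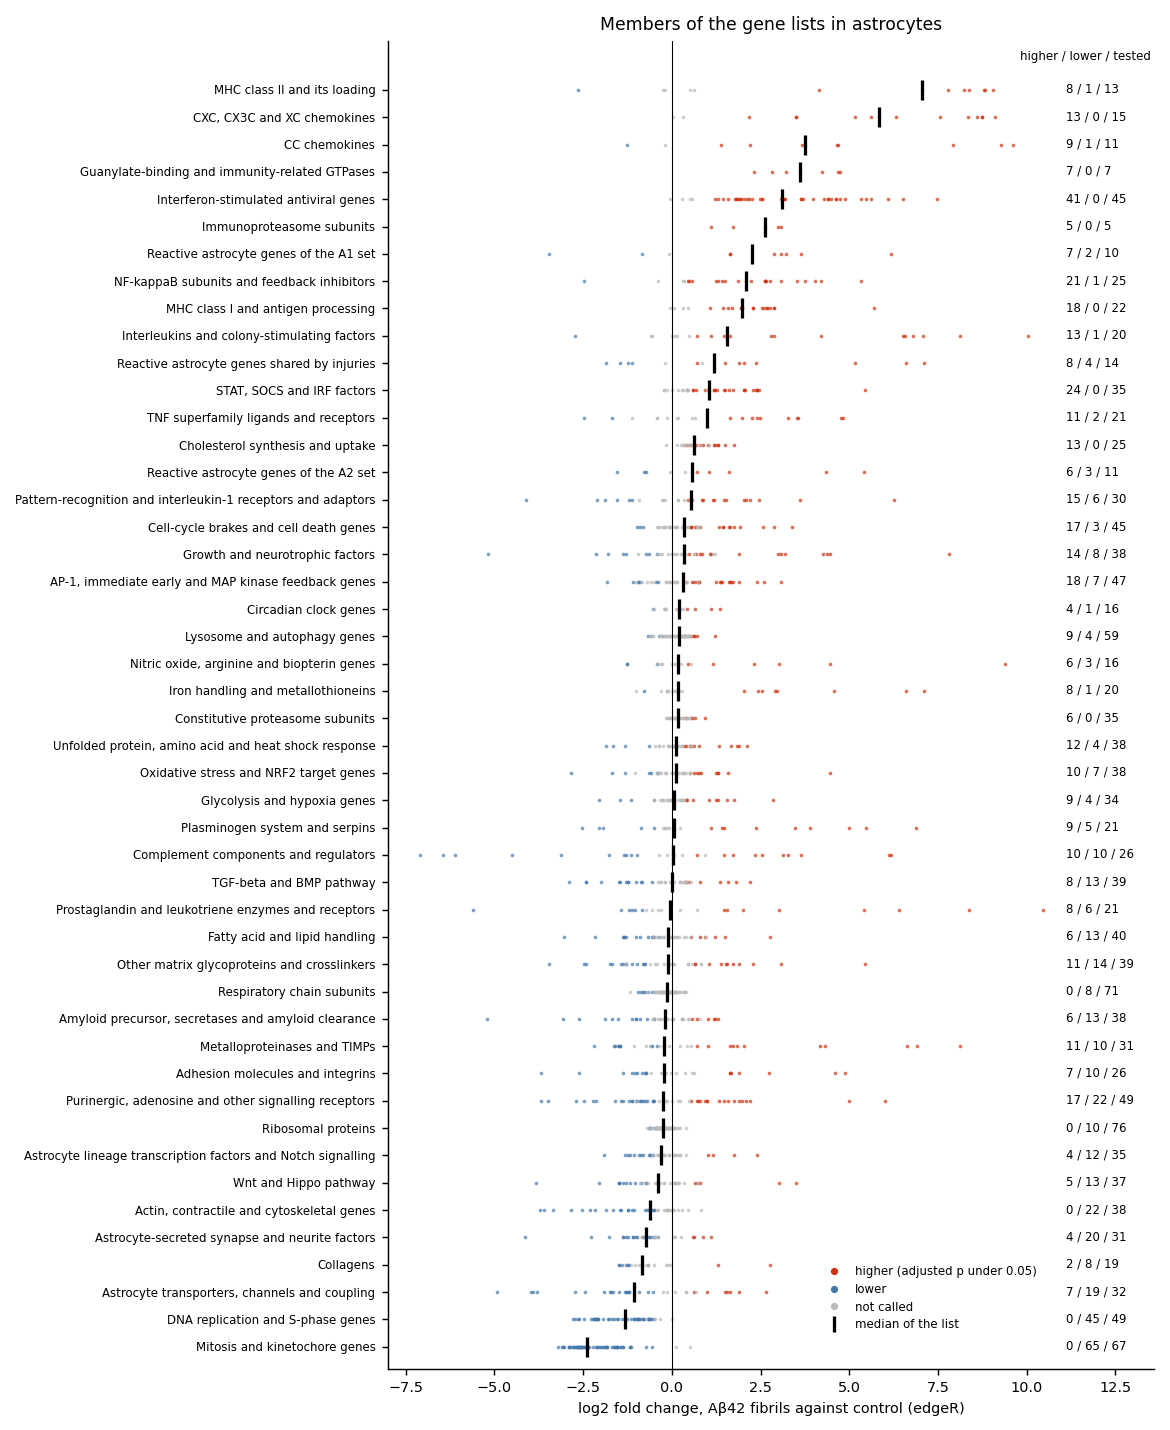
Each point is 1 tested gene of a list at its log2 fold change (Aβ42 fibrils against control), red where higher and blue where lower at an adjusted p under 0.05, grey where not called; black bars are list medians and the numbers at the right count members higher, lower and tested. Antigen presentation, chemokine and interferon lists lie at the top and the mitosis list, with 65 of 67 members lower, at the bottom; points of genes with 3 counts or fewer in every control library depend on the prior count of the fit.

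Chemokines, which draw leukocytes along gradients, were among the lists with the widest rise. Of the 15 CXC, CX3C and XC chemokines tested, 13 rose and 0 fell, with a median log2 fold change of 5.83, and 12 of the 13 passed 5-fold in the fit. Cxcl1, a ligand of the neutrophil receptor CXCR2, was at 11.4, 12.7 and 6.19 CPM in the control libraries and 504, 552 and 561 CPM with Aβ42 (log2 fold change 5.83 ± 0.24). Cxcl2, which binds the same receptor, went from 0, 0.239 and 0.281 CPM to 86.9, 92.1 and 97.3 CPM, and its control libraries held 0, 1 and 4 counts. The interferon-inducible T cell attractant Cxcl10 rose from 12.8, 23 and 8.86 CPM to 458, 530.2 and 524 CPM (log2 fold change 5.15 ± 0.3). Its relatives Cxcl9, at 0.278, 0.479 and 0.0703 CPM and 90.9, 84.3 and 77.2 CPM, and Cxcl11, at 1.11, 4.55 and 1.05 CPM and 135, 152 and 168 CPM, had the same order. Cxcl9 held 4 counts over the 3 control libraries and 2801 over the treated ones, a ratio of 469 with a 95% exact counting interval of 183 to 1720. Cxcl3, Cxcl13 and Cxcl17 likewise came from the detection limit, with treated means of 54.4 ± 15.5, 44.4 ± 4.67 and 77.3 ± 2.59 CPM (SD, n = 3). The transmembrane chemokines were read well above the detection limit in control already: Cxcl16 rose from 135, 130.4 and 88.8 CPM to 1275, 1364 and 1327 CPM (log2 fold change 3.49 ± 0.16) and the fractalkine Cx3cl1, the ligand of Cx3cr1, from 48.1, 29.2 and 39.2 CPM to 459.5, 459 and 402 CPM (3.5 ± 0.17). Cxcl12, the ligand of CXCR4, rose by less (log2 fold change 2.18 ± 0.13), and Cxcl14, at 302, 181 and 227 CPM and 309.6, 302 and 261 CPM, and Pf4 were not called.

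Of 11 CC chemokines tested, 9 rose and 1, Ccl6, fell (log2 fold change -1.27 ± 0.21). Ccl20, the ligand of CCR6, was at 0.557, 1.68 and 0.422 CPM in control and 376, 452 and 505 CPM with Aβ42 (log2 fold change 9.27 ± 0.35). Ccl5 rose from 2.5, 2.39 and 0.985 CPM to 378, 429 and 361 CPM (log2 fold change 7.91 ± 0.28), and the monocyte attractants Ccl7 and Ccl2 from 25.1, 34 and 24.8 CPM to 623, 709 and 761 CPM and from 79.6, 98.6 and 69.8 CPM to 916, 1110 and 1110 CPM. All of these were separated from control by more than the spread of either group. Ccl19 was at 0 counts in all control libraries and at 9.54, 9.6 and 7.69 CPM with Aβ42, at least 15.2-fold higher against 3 counts per library. Ccl3 rose from 5.01, 1.92 and 3.24 CPM to 100, 84.9 and 67.3 CPM (log2 fold change 4.67 ± 0.27). The chemokines split when set beside the Aβ42 microglia libraries, scaled separately: Ccl3 and Cxcl2 in treated astrocytes came to 2.3% and 4.33% of their level there and Cxcl1 to 20.8%, against 202% for Ccl20, 823% for Cxcl10 and 924% for Ccl5. The summed microglia markers came to 4.25%.

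Chemokine promoters were searched for the core of a κB site, the sequence that NF-κB binds. In the RefSeq promoters of build GRCr8, which run from 250 bases before to 50 bases after the start of each gene, GGNNTTTCC on either strand was found in 6 of 13 chemokines of the CXC, CX3C and XC list (46.2%), in 2 of 7 CC chemokines (28.6%), in 42 of 255 genes higher at 5-fold (16.5%) and in 582 of 9074 genes tested (6.41%). The following stretches, all upstream of the start, show the matches in capitals. Cxcl1, Cxcl2 and Ccl20 are shown because they rose from low levels, and Nfkbia, an IκB inhibitor, because it is the feedback arm of the same factor.
Cxcl1 (chr14:17479372-17479451, minus strand): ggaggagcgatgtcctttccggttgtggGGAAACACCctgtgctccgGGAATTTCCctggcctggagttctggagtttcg
Cxcl2 (chr14:17467286-17467365, minus strand): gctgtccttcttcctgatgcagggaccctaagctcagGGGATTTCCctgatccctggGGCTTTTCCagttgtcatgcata
Ccl20 (chr9:91837029-91837108, plus strand): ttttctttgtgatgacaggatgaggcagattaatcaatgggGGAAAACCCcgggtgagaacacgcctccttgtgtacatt
Nfkbia (chr6:78597073-78597272, minus strand): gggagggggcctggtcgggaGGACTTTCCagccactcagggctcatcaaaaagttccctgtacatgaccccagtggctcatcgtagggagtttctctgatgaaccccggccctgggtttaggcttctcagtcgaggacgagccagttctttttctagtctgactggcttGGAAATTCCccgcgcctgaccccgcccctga
Cxcl1, Cxcl2 and Nfkbia each hold a pair of matches in the stretch printed and Ccl20 a single one. A match is a description of the letters and not a measured binding site.

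Interleukins and colony-stimulating factors rose in 13 of 20 tested members and fell in 1, Il16 (log2 fold change -2.74 ± 0.33). The granulocyte factor Csf3 held 1 count over the 3 control libraries and 1969 over the treated ones, at 63.2, 61.9 and 52.5 CPM, a ratio of 1320 with a 95% exact counting interval of 236 to 52100, and Csf2, the granulocyte–macrophage factor, was at 0, 0 and 0.0703 CPM and 18.9, 13.9 and 14.7 CPM. Il1b rose from 0.278, 1.2 and 0.774 CPM to 109.5, 109.7 and 96.4 CPM (log2 fold change 7.07 ± 0.24) and Il1a from 0.835, 1.2 and 0.422 CPM to 60.6, 60.5 and 69.5 CPM (6.56 ± 0.3). Their receptor antagonist Il1rn rose as well, from 0.557, 3.35 and 1.62 CPM to 193, 206 and 209.5 CPM (log2 fold change 6.8 ± 0.29). The gp130 ligand Lif rose from 5.29, 5.74 and 4.43 CPM to 93.2, 83.6 and 98.5 CPM (log2 fold change 4.2 ± 0.16), and Il6, which signals through the same receptor chain, stood at 0, 0 and 0.141 CPM and 8.1, 9.1 and 10.6 CPM. Csf1, the ligand of Csf1r, had the highest CPM of the list and rose from 219, 239 and 189 CPM to 618, 609 and 545 CPM (log2 fold change 1.46 ± 0.12), while Il34, its other ligand, was not called (0.48 ± 0.33). Il1b in treated astrocytes was 2.42% and Il1rn 14.8% of the level in Aβ42 microglia, below and above the 4.25% of the microglia markers. Tnf, at 1.11, 0 and 2.25 CPM and 19.1, 16 and 17.2 CPM (log2 fold change 3.53 ± 0.42), was 1.68% of its level there.

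Among TNF superfamily ligands and receptors 11 of 21 rose and 2, Tnfrsf21 (log2 fold change -1.7 ± 0.14) and Tnfrsf11a (-2.48 ± 0.41), fell. Among receptors Tnfrsf9, the costimulatory 4-1BB, rose from 9.74, 3.11 and 5.07 CPM to 173, 155 and 143 CPM (log2 fold change 4.78 ± 0.28), Tnfrsf1b, the second TNF receptor, from 6.96, 5.5 and 11.2 CPM to 46.3, 49.9 and 45.4 CPM, and the death receptor Fas from 61.5, 77.1 and 42.6 CPM to 180.3, 189 and 188 CPM. Among ligands Tnf rose as given above, and Tnfsf15 and Tnfsf10, at 2 and 4 counts over the control libraries, held 98 and 60 with Aβ42 (ratio 32.8, counting interval 8.84 to 275, and ratio 10, interval 3.73 to 38.1). Tnfrsf1a, the first TNF receptor and the one with the highest CPM of the list, was not called (log2 fold change -0.14 ± 0.15). Of 30 pattern-recognition and interleukin-1 receptors and adaptors 15 rose (50%, against 16.5% of all genes) and 6 fell (20%, near the 20.4% of all genes). Receptors were found on both sides. Tlr2, a receptor of amyloid and bacterial lipopeptides, rose from 5.29, 7.9 and 9 CPM to 86, 100.1 and 94.4 CPM (log2 fold change 3.6 ± 0.19), the peptidoglycan sensor Nod2 from 0.278, 0.718 and 0.211 CPM to 27.3, 28.9 and 20.4 CPM, and the interleukin-1 receptor Il1r1 from 15, 24.2 and 13.9 CPM to 70.1, 69.5 and 75.7 CPM (2.04 ± 0.2). The inflammatory caspases Casp4 (log2 fold change 2.09 ± 0.15) and Casp1 (1.52 ± 0.16) rose. Members known from myeloid cells were among those that fell: the β-glucan receptor Clec7a went from 22, 37.6 and 24.4 CPM to 1.58, 2.02 and 1.2 CPM (log2 fold change -4.1 ± 0.28), Tlr8 and Tlr7, endosomal sensors of RNA, had log2 fold changes of -2.11 and -1.88, and the lipopolysaccharide receptor Tlr4 -1.21. These falls went with the fall of the microglia markers, and whether they share a source was not tested.

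The NF-κB system rose at nearly every level, with 21 of 25 members higher, 1 lower (Tnfaip8l2, log2 fold change -2.48 ± 0.31) and a median log2 fold change of 2.08. The subunits Nfkb2 (log2 fold change 2.63 ± 0.24), Nfkb1 (2.23 ± 0.14) and Rela (1.31 ± 0.18) rose. The inhibitor Nfkbia rose by as much as Nfkb2, from 122, 108 and 113 CPM to 716, 741 and 698 CPM (log2 fold change 2.65 ± 0.11). Nfkbiz, a nuclear IκB protein, rose from 7.79, 13.9 and 8.93 CPM to 164, 188 and 199.7 CPM (4.19 ± 0.22). Peli1, Tbk1 and Map3k14 were not called. The adaptor Birc3, a ubiquitin ligase of TNF receptor complexes, went from 8.35, 16.5 and 8.02 CPM to 412, 424 and 434 CPM (log2 fold change 5.32 ± 0.25). Zc3h12a, a ribonuclease that degrades cytokine messages, rose from 16.7, 8.86 and 14.6 CPM to 268, 236 and 164 CPM, and Tnip1, a partner of the deubiquitinase A20, from 145, 122 and 143 CPM to 896, 858 and 776 CPM. Subunits, adaptors and feedback inhibitors of the pathway stood higher in the same cultures.

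The factors that carry interferon and gp130 signals rose in 24 of 35 tested members, with none lower. Irf7, the master regulator of interferon genes, had one of the 10 smallest p-values among higher genes, at 23.1, 24.4 and 22.2 CPM in control and 950, 1068 and 1004 CPM with Aβ42 (log2 fold change 5.44 ± 0.14, edgeR adjusted p = 1.66e-09). Irf7 in treated astrocytes was 152% of its level in Aβ42 microglia. Stat2 rose from 114, 123 and 137 CPM to 660.5, 687 and 643 CPM (log2 fold change 2.41 ± 0.11) and Irf1 from 45.4, 40.5 and 54.2 CPM to 260, 249.8 and 239 CPM (2.41 ± 0.13), and Irf9, the DNA-binding partner of Stat2, by 1.73 on the log2 scale. Stat3, with the highest CPM of the list, rose from 536, 414 and 532 CPM to 1017, 1070 and 990.5 CPM (log2 fold change 1.05 ± 0.12), with Jak2 (2.06 ± 0.16) and the receptors Il6st (1.22 ± 0.12) and Osmr (1.5 ± 0.23). Socs3, the feedback inhibitor of STAT3, was not called at 38.1, 11.2 and 65.2 CPM and 90.8, 83.9 and 61.4 CPM. Its lowest treated value lay below its highest control value, so that the groups overlapped, and it was called higher without control replicate 2 (edgeR adjusted p = 0.0406) or control replicate 3 (0.00991) and by DESeq2 on all libraries (0.0445).

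Of the targets of these factors, 41 of 45 interferon-stimulated antiviral genes rose and 0 fell, all 41 by 2-fold or more, with a median log2 fold change of 3.1. Ifit3, which binds foreign RNA, was at 3.9, 6.22 and 2.39 CPM in control and 616, 682 and 692 CPM with Aβ42 (log2 fold change 7.48 ± 0.28). Mx1, a GTPase that blocks viral ribonucleoproteins, rose from 12, 21.1 and 11.7 CPM to 1266, 1358 and 1398 CPM (log2 fold change 6.52 ± 0.23), and its relative Mx2, higher in control, from 177, 197 and 137 CPM to 1394, 1494 and 1450 CPM (3.09 ± 0.15). The ubiquitin-like Isg15 rose from 20.3, 23.7 and 10.8 CPM to 413, 439 and 440.1 CPM (log2 fold change 4.62 ± 0.25) together with its protease Usp18 (4.28 ± 0.14) and the RNA sensor Dhx58 (4.39 ± 0.14). Slfn2, a schlafen protein, had one of the 10 smallest p-values, with 8.63, 7.66 and 7.95 CPM and 196, 200.4 and 204 CPM (log2 fold change 4.63 ± 0.13). Lgals3bp, a secreted galectin-binding glycoprotein, had the highest CPM of the list and rose from 568, 369 and 380 CPM to 1877, 1861 and 1647 CPM (log2 fold change 2.03 ± 0.17). The 2-5A synthetases Oas1a (log2 fold change 4.89 ± 0.23) and Oas1b (4.75 ± 0.19) and the related Oasl (6.1 ± 0.22) rose. Oas1a and Oas1b are close copies between which the counting may have split reads. Samhd1, Ifitm1 and Apobec1 were among the 4 not called, and Samhd1 was called higher without control replicate 2 (edgeR adjusted p = 0.00848) and by DESeq2 on all libraries (0.0345). The interferon gene Ifnb1 itself had 0 counts in control and 2, 2 and 1 counts with Aβ42, too few to test.

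The guanylate-binding and immunity-related GTPases, which attack the membranes of vacuoles, rose in all 7 tested members. Gbp2, with the highest CPM of all genes higher at 2-fold, rose from 371, 573 and 349 CPM to 3870, 4159 and 4097 CPM (log2 fold change 3.23 ± 0.19), and was 1100% of its level in Aβ42 microglia. Gbp5 rose from 47.6, 71.8 and 38.1 CPM to 1446, 1417 and 1338 CPM (log2 fold change 4.75 ± 0.22), Ifi47 from 10.6, 13.4 and 14.6 CPM to 161, 158 and 161 CPM (3.61 ± 0.14) and Igtp from 40.9, 55 and 43.6 CPM to 304, 332 and 347 CPM (2.82 ± 0.15). Members of this family share sequence, and the share of reads each received is uncertain.

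The element of interferon factors was frequent before these genes. GAAANNGAA on either strand, the core of the ISRE, was found in 21 of 31 promoters of the antiviral list (67.7%), in 5 of 6 of the GTPases (83.3%) and in 59 of 255 genes higher at 5-fold (23.1%), against 646 of 9074 genes tested (7.12%) and 75 of 1027 genes lower at 2-fold (7.3%). It was also found in 20.3% of ribosomal protein and 21.7% of lysosome and autophagy promoters, lists in which 0% and 15.3% of members rose. Stretches upstream of the start are shown for 3 antiviral genes and 1 GTPase of this response, with the matches in capitals, of which the pair in Oas1a overlaps.
Ifit3 (chr1:241527246-241527325, plus strand): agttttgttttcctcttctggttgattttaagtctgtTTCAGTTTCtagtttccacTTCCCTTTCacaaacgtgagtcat
Oas1a (chr12:41330386-41330465, plus strand): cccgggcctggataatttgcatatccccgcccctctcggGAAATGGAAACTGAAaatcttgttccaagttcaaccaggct
Cmpk2 (chr6:48802720-48802799, plus strand): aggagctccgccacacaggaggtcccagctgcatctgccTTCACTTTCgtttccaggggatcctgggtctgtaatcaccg
Igtp (chr10:42874907-42874986, plus strand): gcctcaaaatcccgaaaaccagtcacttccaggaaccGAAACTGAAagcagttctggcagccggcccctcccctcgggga
Cmpk2, a mitochondrial nucleotide kinase of the antiviral list, rose from 43.5 to 375 CPM in the means (log2 fold change 3.1 ± 0.15).

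MHC class I presentation, which displays peptides from inside the cell to T cells, rose in 18 of 22 tested members with none lower. B2m, the light chain of every class I molecule, went from 1036, 989 and 575 CPM to 2152, 2396 and 2475 CPM (log2 fold change 1.43 ± 0.2). Among heavy chains RT1-S3 rose from 70.1, 61.3 and 55.8 CPM to 466, 475 and 441 CPM (log2 fold change 2.89 ± 0.13), RT1-T24-3 (5.71 ± 0.27) and RT1-N3 (2.89 ± 0.16) with it, although reads of RT1 copies may be split between them. The peptide transporter Tap1 rose from 54.5, 29.7 and 53 CPM to 330.1, 322 and 236 CPM (log2 fold change 2.69 ± 0.23) and the loading factor Tapbp from 51.2, 22.3 and 60 CPM to 244, 231 and 184 CPM. The general chaperones Calr, Canx and Pdia3 were not called, nor was RT1-T24-1, and without control replicate 2 Pdia3 was called higher (edgeR adjusted p = 0.00735). All 5 immunoproteasome genes rose, the catalytic subunits Psmb8 (log2 fold change 3.09 ± 0.31), Psmb9 (2.99 ± 0.21) and Psmb10 (2.63 ± 0.26) and the activators Psme2 (1.71 ± 0.18) and Psme1 (1.11 ± 0.14). Of 35 constitutive proteasome subunits 6 rose and 0 fell, none by 2-fold, with Psma6 at the top (log2 fold change 0.93 ± 0.15), a share of 17.1% that is near the background of 16.5%, and 2 rose without Aβ42 replicate 2 or 3.

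MHC class II, which presents engulfed material and is usually a property of professional antigen-presenting cells, rose from near nothing. Of 13 tested members 8 rose, all 8 by 5-fold or more in the fit, and 1 fell. Cd74, the invariant chain, was at 2.5, 4.79 and 2.18 CPM in control and 919, 900.5 and 784 CPM with Aβ42 (log2 fold change 8.22 ± 0.27). The chains RT1-Da and RT1-Db1 went from 0, 1.44 and 0.352 CPM to 228, 239.9 and 244 CPM and from 0.835, 0.479 and 0.422 CPM to 70.7, 71.6 and 63.5 CPM. RT1-Ba held 4 counts over the 3 control libraries and 3364 over the treated ones, a ratio of 563 with a 95% exact counting interval of 220 to 2070, and RT1-Bb was at 0, 0.718 and 0.0703 CPM and 104, 87 and 72.7 CPM. Ciita, the transactivator that class II genes depend on, was at 0.278, 0 and 0.141 CPM and 36.7, 33.9 and 26.8 CPM, 3 and 1092 counts in all (ratio 244, counting interval 83.2 to 1180). With the 5 members from the detection limit set to their lower bound, the median log2 fold change of the list was 2.87 in place of 7.05. RT1-DMa (1.11, 0.718 and 0.422 CPM and 0.755, 0.404 and 0.24 CPM), which edits the peptides of class II molecules, was not called, and neither were RT1-DMb, Cd80 and Ctss. The costimulator Cd86 fell from 4.73, 9.1 and 3.73 CPM to 0.686, 0.91 and 1.08 CPM (log2 fold change -2.65 ± 0.44), while the inhibitory ligand Cd274 was at 0.557, 0 and 0.211 CPM and 3.78, 4.95 and 4.2 CPM. Cd74 and RT1-Da stood at 811% and 1620% of their level in Aβ42 microglia, where Cd74 was at 102 to 115 CPM. CCAAT, whose reverse complement is the core of the Y box of class II promoters, was found in 8 of 10 promoters of the list (80%), against 37.4% of genes tested. It was as frequent in other lists, at 85% of MHC class I and 77.8% of cholesterol promoters, and stood at 38% of genes higher at 5-fold. Capitals mark its reverse complement upstream of the start of both chains below, shown because they rose from the detection limit or close to it.
RT1-Ba (chr20:4576957-4577056, plus strand): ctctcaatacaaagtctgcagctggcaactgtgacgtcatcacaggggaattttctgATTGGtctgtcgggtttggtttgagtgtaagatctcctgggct
RT1-Da (chr20:4515315-4515414, plus strand): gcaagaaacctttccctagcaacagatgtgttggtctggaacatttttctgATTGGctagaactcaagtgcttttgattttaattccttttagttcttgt

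Complement, a cascade of plasma proteases that tags targets for removal, split into components that rose and components that fell, 10 each of 26 tested. C3, the hub of the cascade, was at 34, 47.6 and 41.8 CPM in control and 3000, 2982 and 2996 CPM with Aβ42 (log2 fold change 6.18 ± 0.15, edgeR adjusted p = 1.66e-09). Factor B, Cfb, which forms the alternative-pathway convertase with C3, rose from 37, 43.3 and 39.6 CPM to 2822, 2840 and 2611 CPM (log2 fold change 6.11 ± 0.15). The classical-pathway proteases C1s, from 171, 193 and 170 CPM to 1543, 1571 and 1564 CPM (log2 fold change 3.13 ± 0.11), and C1r, from 252, 208 and 228 CPM to 1238, 1159 and 1089 CPM (2.34 ± 0.13), and their target C2 (2.54 ± 0.24) rose, as did the inhibitor of C1, Serping1, from 199, 216 and 175 CPM to 2401, 2489 and 2411 CPM (3.63 ± 0.12). The recognition subunits of the same complex went the other way. C1qb fell from 90.2, 56.5 and 89.6 CPM to 0.892, 0.708 and 1.08 CPM (log2 fold change -6.46 ± 0.28), and C1qa and C1qc had log2 fold changes of -7.1 and -6.11. The 3 C1q genes are microglia markers and moved with that list. The anaphylatoxin receptor C3ar1 fell from 6.96, 7.42 and 7.81 CPM to 0.549, 0.809 and 1.32 CPM (log2 fold change -3.13 ± 0.28). C3 in treated astrocytes was 124% and Cfb 247% of the level in Aβ42 microglia, whereas C1qb was 2.08%.

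Of 21 enzymes and receptors of prostaglandins and leukotrienes, lipid mediators made from arachidonate, 8 rose and 6 fell. Pla2g2a, a secreted phospholipase that frees arachidonate, was at 0 counts in all control libraries and at 16.3, 15.9 and 16 CPM with Aβ42, at least 27.3-fold higher. Ptgs2, the inducible cyclooxygenase, rose from 1.11, 0.479 and 0.422 CPM to 24.2, 24 and 24.6 CPM (log2 fold change 5.41 ± 0.31), and Ptges, the terminal synthase, from 0.278, 0.479 and 0.492 CPM to 152, 158 and 148 CPM (8.37 ± 0.2, edgeR adjusted p = 1.66e-09), which with Cfb, C3 and Irf7 had the smallest p-values among higher genes. Ptges reached 453% of its level in Aβ42 microglia. Alox5ap, the activator of leukotriene synthesis, fell from 5.29, 4.07 and 2.32 CPM to 0.0687, 0.101 and 0 CPM, and the thromboxane synthase Tbxas1 (log2 fold change -1.44 ± 0.18) and the receptor Ptger3 (-1.22 ± 0.25) fell. Ptgs1, the constitutive cyclooxygenase, was not called.

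Inducible nitric oxide synthase, Nos2, rose from 0.835, 1.92 and 0.422 CPM to 573, 563 and 526 CPM (log2 fold change 9.39 ± 0.31), and its treated mean was 66.9% of that in Aβ42 microglia. Genes that feed the enzyme rose beside it: Gch1, which starts the synthesis of its cofactor tetrahydrobiopterin, from 1.39, 0 and 1.27 CPM to 24.1, 24.8 and 19.2 CPM (log2 fold change 4.47 ± 0.38), Ass1, which regenerates arginine, from 71.2, 49.5 and 64.8 CPM to 506, 512 and 493 CPM (3.02 ± 0.14), and the arginine transporter Slc7a2 (2.32 ± 0.23). Of the 16 genes of the list 6 rose (37.5%) and 3 fell (18.8%, near the 20.4% of all genes), among the latter Ddah1 (log2 fold change -1.26 ± 0.15) and Odc1 (-0.43 ± 0.11). The mitochondrial superoxide dismutase Sod2 rose from 93.5, 81.4 and 97.6 CPM to 1912, 2071 and 2023 CPM (log2 fold change 4.46 ± 0.13). Its treated mean was 80.6% of that in Aβ42 microglia. Other oxidative stress genes rose by far less, Nqo1 by 1.58 and Hmox1 by 0.83 on the log2 scale, and the subunits of the phagocyte oxidase Cybb (log2 fold change -2.83 ± 0.32) and Ncf1 (-1.68 ± 0.15) fell. The latter are myeloid genes and moved with the microglia markers.

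Iron handling genes rose in part, with 8 of 20 members higher and only Tfrc lower (log2 fold change -0.79 ± 0.18). Lcn2, a lipocalin that binds bacterial siderophores, rose from 34, 37.3 and 19.5 CPM to 2648, 3004 and 2923 CPM (log2 fold change 6.6 ± 0.25), and the metalloreductase Steap4 from 1.39, 2.63 and 1.55 CPM to 243, 244 and 252 CPM (7.11 ± 0.19). Lcn2 in treated astrocytes was 71.4% of its level in Aβ42 microglia. Transferrin, Tf, went from 344, 296 and 438 CPM to 2518, 2770 and 2796 CPM (log2 fold change 2.9 ± 0.16) and ceruloplasmin, Cp, a copper ferroxidase, from 610.3, 773 and 720.3 CPM to 2687, 2910 and 3059 CPM (2.04 ± 0.13). The importers Slc39a14 (log2 fold change 2.95 ± 0.16) and Slc11a2 (2.55 ± 0.13) and the heme binder Hpx (4.58 ± 0.2) rose, while the storage subunit Fth1, with the highest CPM of the list, was not called (-0.15 ± 0.17).

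Of 26 adhesion molecules and integrins 7 rose and 10 fell. The leukocyte-binding Vcam1 rose from 43.7, 76.8 and 33 CPM to 1372, 1509 and 1572 CPM (log2 fold change 4.88 ± 0.28), Icam1 from 93, 67.5 and 94 CPM to 598, 581 and 524 CPM (2.74 ± 0.15) and the hyaluronan receptor Cd44 from 339, 481 and 309 CPM to 1312, 1374 and 1468 CPM (1.88 ± 0.16). Jam2, which also binds leukocytes (log2 fold change -1.39 ± 0.12), Itga6 (-1.12 ± 0.16) and Ncam1 (-1.05 ± 0.14) were among those that fell. Of 31 metalloproteinases and their inhibitors 11 rose and 10 fell. Mmp9, a gelatinase, rose from 1.11, 0.718 and 0.985 CPM to 119, 121 and 109 CPM (log2 fold change 6.92 ± 0.2) and was 2.32% of its level in Aβ42 microglia, below the 4.25% of the microglia markers. Mmp3, a stromelysin, was at 0, 0.239 and 0.0703 CPM and 26.2, 28.9 and 31.2 CPM, and Mmp13 at 0.278, 0.239 and 0 CPM and 9.61, 10.7 and 10.4 CPM. The inhibitors Timp3 (log2 fold change -1.45 ± 0.17), Timp4 (-2.2 ± 0.18) and Timp2 (-0.59 ± 0.14) fell, and Timp1 rose (0.72 ± 0.12). Of 21 genes of the plasminogen system and serpins 9 rose (42.9%) and 5 fell (23.8%, near the 20.4% of all genes). Plau, the urokinase that activates plasminogen, fell from 37, 29.2 and 37 CPM to 8.38, 9.91 and 8.89 CPM (log2 fold change -1.93 ± 0.18). The coagulation factor F10 (log2 fold change 5.47 ± 0.28), the serpins Serpinb2 (3.9 ± 0.36), Serpina3n (2.38 ± 0.21) and Serpinb1a (1.46 ± 0.24), the protease inhibitor Tfpi2 (3.47 ± 0.49), the urokinase receptor Plaur (1.11 ± 0.34) and the protein C receptor Procr (1.41 ± 0.27) rose. Slpi, an inhibitor of leukocyte elastase, held 2 counts over the control libraries and 399 with Aβ42 (ratio 134, counting interval 36.7 to 1110). The protease inhibitor A2m (log2 fold change -2.54 ± 0.39), the thrombin receptor thrombomodulin, Thbd (-2.05 ± 0.13), the tissue factor F3 (-0.49 ± 0.16) and its inhibitor Tfpi (-0.88 ± 0.2) fell.

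**Figure D3:**
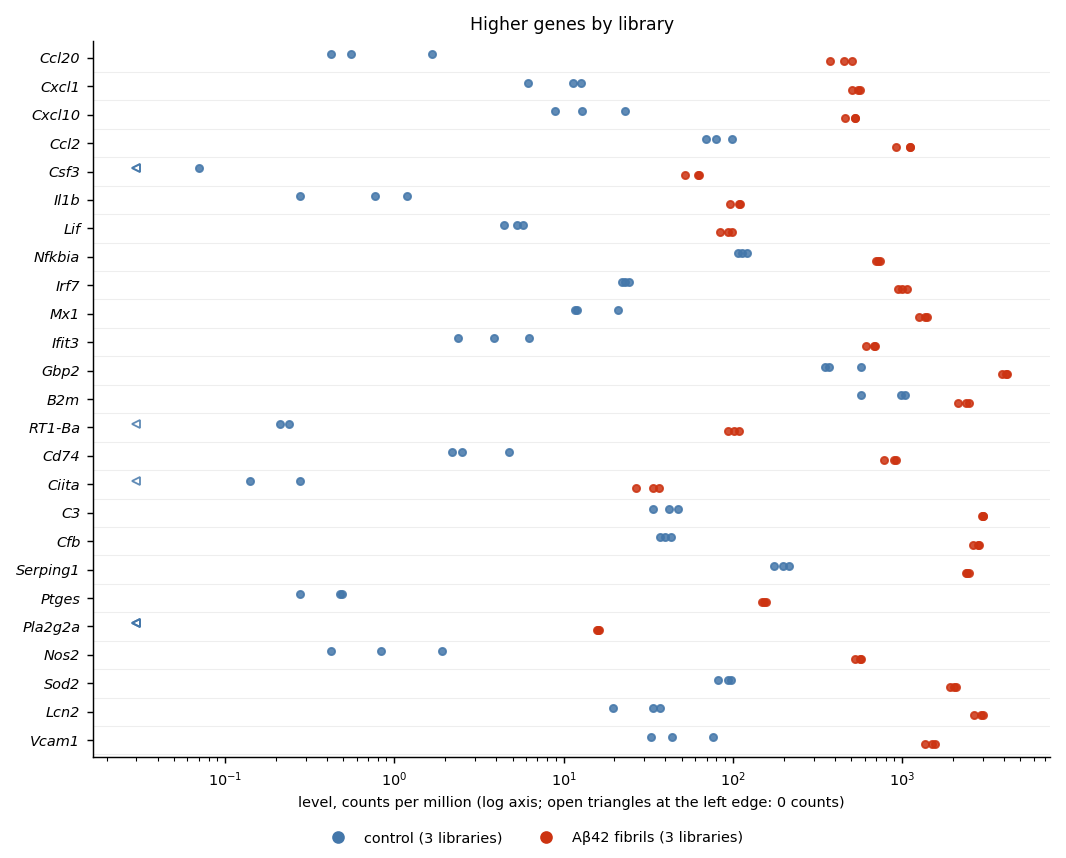
Levels in CPM on a log axis of 25 higher genes in each of the 3 control (blue) and 3 Aβ42 (red) libraries. For every gene plotted the treated libraries lie to the right of the control libraries, and Pla2g2a was at 0 counts in all 3 controls.

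Genes that mark reactive astrocytes moved in both directions. Of 14 genes listed as shared by different injuries 8 rose and 4 fell. Lcn2, Steap4 and Cxcl10 rose as given above, with Serpina3n (log2 fold change 2.38 ± 0.21), Cp, Cd44, Osmr and Timp1. The intermediate filament genes, the usual immunostaining markers of reactivity, fell: Gfap went from 3436, 1886 and 3196 CPM to 1378, 1350 and 1219 CPM (log2 fold change -1.11 ± 0.19), Vim from 10600, 5972 and 6780 CPM to 3120, 3456 and 3318 CPM (-1.24 ± 0.19) and Nes from 349, 126 and 334 CPM to 118, 94.9 and 80.3 CPM (-1.47 ± 0.34), together with the small heat shock protein Hspb1 (-1.85 ± 0.27). Nes ranged widely in control, and control replicate 2 lay close to the treated libraries. Of 10 genes of the A1 set, defined in mice given lipopolysaccharide, 7 rose (C3, Serping1, Gbp2, Psmb8, RT1-S3, Amigo2 at 1.63 and Srgn at 1.63) and 2 fell, Ggta1 (log2 fold change -0.85 ± 0.14) and the elastic fibre protein Fbln5, from 48.4, 37.8 and 41.6 CPM to 4.39, 2.63 and 4.56 CPM (-3.45 ± 0.22). The lower share of this set, 20%, was near the 20.4% of all genes. Of 11 genes of the A2 set, defined after ischemia, 6 rose, among them Ptgs2, given above, Ptx3, a soluble pattern receptor, from 10.6, 12.2 and 13.8 CPM to 253, 260.1 and 242 CPM (log2 fold change 4.34 ± 0.14), and Stat3. S100a10 (log2 fold change -0.78 ± 0.15), Tm4sf1 (-0.74 ± 0.19) and B3gnt5 (-1.55 ± 0.44) fell.

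The transporters, channels and couplings by which astrocytes serve neurons fell in 19 of 32 tested members (59.4%), with a median log2 fold change of -1.07. They rose in 7 (21.9%, against 16.5% of all genes). Atp1b2, the β2 subunit of the sodium pump, fell from 1523, 1095 and 1118 CPM to 422, 376 and 336 CPM (log2 fold change -1.72 ± 0.16). The neurotensin receptor Ntsr2 fell from 23.7, 30.4 and 26.2 CPM to 0.549, 1.31 and 0.841 CPM (log2 fold change -4.93 ± 0.3). Of the inward-rectifier potassium channels Kcnj16 fell from 10.6, 15.3 and 10.4 CPM to 1.1, 0.708 and 0.36 CPM (log2 fold change -3.92 ± 0.38) and Kcnj10 with it (-1.33 ± 0.27). So did the GABA transporter Slc6a11, from 14.8, 19.1 and 17.4 CPM to 1.3, 0.809 and 1.56 CPM (log2 fold change -3.8 ± 0.24), and the glutamine exporter Slc38a3, from 308, 182 and 304 CPM to 46.5, 39 and 33.6 CPM (-2.73 ± 0.23). The glutamate transporters, which end synaptic signals, went opposite ways: Slc1a3, the GLAST of developing astrocytes, fell from 2070, 1992 and 1851 CPM to 954, 1037 and 1098 CPM (log2 fold change -0.94 ± 0.11), and Slc1a2, the GLT-1 of mature astrocytes, rose from 4.73, 6.7 and 4.71 CPM to 16.1, 14.8 and 14.1 CPM (1.51 ± 0.18). Aldh1l1, the folate enzyme used as a pan-astrocyte marker, rose from 38.7, 29 and 48.5 CPM to 135, 122 and 113 CPM (log2 fold change 1.65 ± 0.18), the lactate carrier Slc16a1 from 159.5, 154 and 174 CPM to 456, 486 and 495 CPM (1.56 ± 0.11), and the calcium-activated potassium channel Kcnn3 from 5.01, 4.31 and 4.22 CPM to 26.8, 30 and 26.7 CPM (2.65 ± 0.17). The gap junction gene Gja1 fell by a smaller step (log2 fold change -0.54 ± 0.17) and lost its call without any 1 of 4 libraries. Aqp4, the water channel of the endfoot, was at 1389, 1876 and 1226 CPM and 1859, 1979 and 2101 CPM and glutamine synthetase, Glul, at 1765, 1141 and 1350 CPM and 1535, 1522 and 1482 CPM, and neither was called; without control replicate 2 Aqp4 was called higher (edgeR adjusted p = 0.000411), as it was by DESeq2 on all libraries (0.0463). The calcium-binding S100b fell from 2208, 1509 and 1422 CPM to 559, 542 and 519 CPM (log2 fold change -1.67 ± 0.16).

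Astrocyte lineage factors and Notch genes fell in 12 of 35 members and rose in 4. Nfia (log2 fold change -0.86 ± 0.13), Sox9 (-0.92 ± 0.18), the Notch target Hey1 (-1.33 ± 0.23) and the ligand Dll1 (-1.24 ± 0.17) fell, whereas the ligand Jag1 rose from 14.5, 15.8 and 12.6 CPM to 67.7, 71.2 and 82.9 CPM (2.39 ± 0.16), with Id3 (1.76 ± 0.31), Gli2 (1.17 ± 0.19) and Id1 (1.02 ± 0.2). Sox2, with the highest CPM, was not called (log2 fold change -0.18 ± 0.13).

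Factors that astrocytes secrete for synapses and neurites fell in 20 of 31 members and rose in 4. Thbs4, a thrombospondin, fell from 39, 40.7 and 39.7 CPM to 2.27, 1.52 and 3 CPM (log2 fold change -4.15 ± 0.24), Chrdl1, a driver of synapse maturation, from 191, 225 and 202 CPM to 40, 40.9 and 45.4 CPM (-2.29 ± 0.13), and the synaptogenic hevin Sparcl1 from 2966, 2384 and 2100 CPM to 1017, 913 and 930.3 CPM (-1.38 ± 0.14). Its relative Sparc, with the highest CPM of the list, fell by less (log2 fold change -0.47 ± 0.13), and the proteoglycan phosphatase Ptprz1 from 1611, 2437 and 1547 CPM to 802, 878 and 954 CPM (-1.09 ± 0.17). The 4 that rose were Thbs2 (log2 fold change 1.11 ± 0.13), Tnc (0.87 ± 0.14), Efnb1 (0.63 ± 0.22) and Ntn1 (0.6 ± 0.21), a count of 4 that was 2 without control replicate 2.

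Actin, contractile and cytoskeletal genes fell in 22 of 38 members and none rose. The smooth muscle type genes fell most: Cnn1, calponin, from 124, 82.3 and 133 CPM to 10.1, 8.9 and 8.77 CPM (log2 fold change -3.61 ± 0.22), Acta2, smooth muscle actin, from 57.6, 56.7 and 37.2 CPM to 5.22, 5.36 and 4.08 CPM (-3.34 ± 0.21), Lmod1, which nucleates actin filaments, from 59.6, 35.2 and 57.7 CPM to 3.98, 4.45 and 3 CPM (-3.73 ± 0.27), Myl9, a myosin light chain (-2.31 ± 0.13), and Tagln, transgelin, from 1189, 692 and 849 CPM to 137, 131 and 109.8 CPM (-2.85 ± 0.21). Genes of this kind are also known from mural cells and fibroblasts, whose summed markers were at 62% and 80.5% of control with Aβ42, and their part in the fall was not tested. The fibroblast sum included Pdgfrb, which rose (log2 fold change 1.34). Without Pdgfrb it was at 314 to 329 CPM in control and 141 to 175 CPM with Aβ42. The top member of the mural sum was Cspg4, which is also on the oligodendrocyte list. Of 19 collagens 8 fell, among them Col11a1 (log2 fold change -1.49 ± 0.16), Col1a1 (-1.25 ± 0.17) and Col3a1 (-1.2 ± 0.14), and 2 rose, Col14a1 from 11.7, 13.4 and 12.2 CPM to 88.4, 84.5 and 84.2 CPM (2.78 ± 0.13) and Col4a1 of basement membrane (1.3 ± 0.18). The count of lower collagens was 13 without control replicate 2 and 4 without control replicate 1, without Aβ42 replicate 2 or without Aβ42 replicate 3. Other matrix genes fell in 14 and rose in 11 of 39, with Fbln1 (log2 fold change -2.41 ± 0.13) and Efemp1 (-2.49 ± 0.18) lower and the hyaluronan synthase Has2 higher, from 2.5, 2.63 and 1.69 CPM to 80.8, 90.2 and 99.9 CPM (5.43 ± 0.2), beside the transglutaminase Tgm2 (3.07 ± 0.25).

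**Figure D4:**
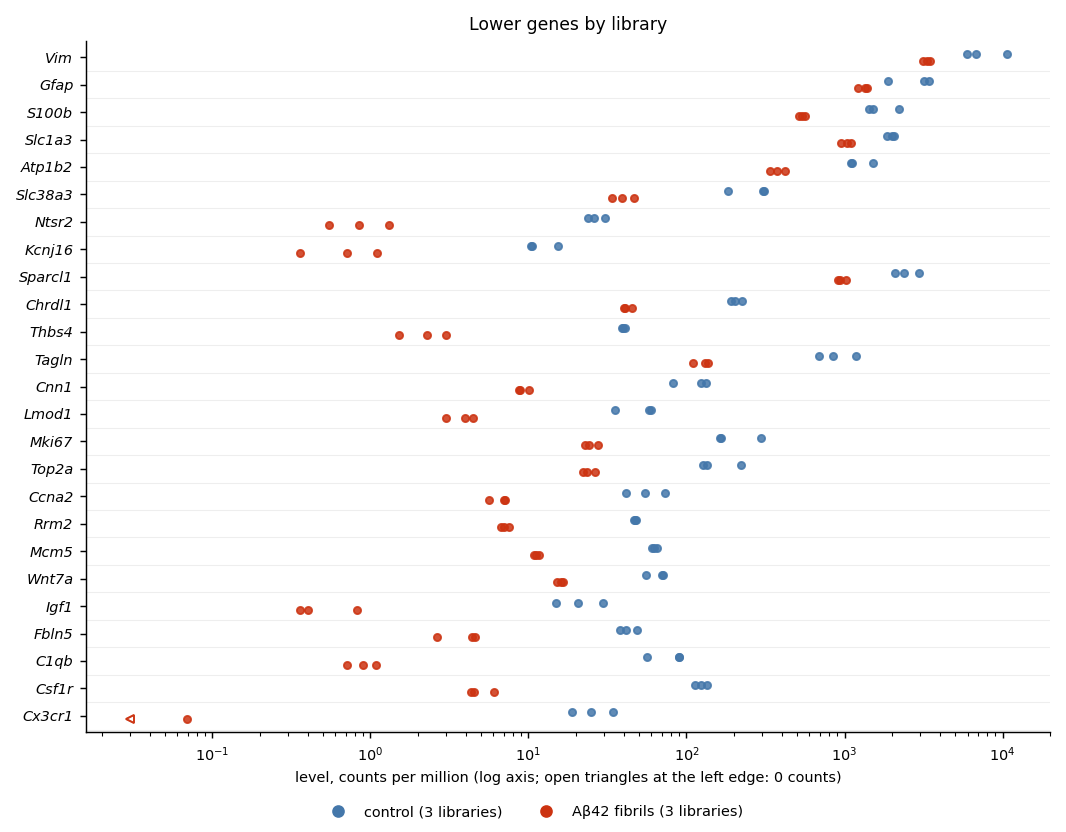
Levels in CPM on a log axis of 25 lower genes in each of the 3 control (blue) and 3 Aβ42 (red) libraries. For every gene plotted the treated libraries lie to the left of the control libraries; C1qb, Csf1r and Cx3cr1 are microglia markers.

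Cell division genes fell nearly as a whole. Of 67 mitosis and kinetochore genes 65 fell and 0 rose, with a median log2 fold change of -2.38, and 36 of them fell by 5-fold or more. The proliferation antigen Mki67 went from 163, 298 and 164 CPM to 24.1, 22.6 and 27.6 CPM (log2 fold change -3.07 ± 0.23), topoisomerase Top2a from 135, 221 and 127 CPM to 23.4, 26.5 and 22 CPM (-2.75 ± 0.21) and cyclin A2, Ccna2, from 54.5, 73.5 and 41.2 CPM to 5.63, 6.97 and 7.09 CPM (-3.1 ± 0.23). Control replicate 2 was the highest of the control libraries in all 3. The ubiquitin-conjugating Ube2c (log2 fold change -2.59 ± 0.15), the kinesin Kif2c (-2.57 ± 0.15), Racgap1 of the midzone (-2.46 ± 0.15) and the kinase Aurkb (-1.83 ± 0.14), fell with them. The 2 not called were Tpx2, at 85.4, 139 and 80 CPM and 149, 137 and 148 CPM, and Cdc25c, at 4.17, 6.46 and 6.54 CPM and 6.8, 4.95 and 7.57 CPM. Without control replicate 2 Tpx2 was called higher (edgeR adjusted p = 2.86e-05), as it was by DESeq2 on all libraries (0.0316) and with no filter on low counts (edgeR, 0.0446). Of 49 genes of DNA replication and S phase 45 fell and 0 rose, with a median of -1.31, led by the ribonucleotide reductase Rrm2, from 47.9, 47.1 and 46.8 CPM to 6.66, 6.97 and 7.57 CPM (log2 fold change -2.74 ± 0.14), the helicase subunit Mcm5, from 62.3, 60.6 and 65.4 CPM to 11.2, 11.7 and 10.8 CPM (-2.48 ± 0.17), and thymidine kinase Tk1 (-2.61 ± 0.2). Pcna, the sliding clamp, fell by less (log2 fold change -0.66 ± 0.14).

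The promoters of mitosis genes held the CHR core TTTGAA on either strand in 40 of 56 (71.4%), against 1037 of 9074 genes tested (11.4%) and 163 of 1027 genes lower at 2-fold (15.9%), and CCAAT in 37 of 56 (66.1%), against 37.4%. The stretches below precede the start of a cyclin, its kinase, a topoisomerase and the proliferation antigen, and show CHR and CCAAT matches of either strand in capitals; these 4 genes mark dividing cells.
Ccnb2 (chr8:79981659-79981808, minus strand): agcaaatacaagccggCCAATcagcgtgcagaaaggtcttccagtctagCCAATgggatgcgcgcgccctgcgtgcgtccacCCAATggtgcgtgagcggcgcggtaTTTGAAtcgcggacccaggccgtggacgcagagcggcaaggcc
Cdk1 (chr20:19265193-19265292, plus strand): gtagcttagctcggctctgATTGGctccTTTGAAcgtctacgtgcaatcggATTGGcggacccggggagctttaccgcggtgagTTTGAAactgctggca
Top2a (chr10:84473094-84473173, minus strand): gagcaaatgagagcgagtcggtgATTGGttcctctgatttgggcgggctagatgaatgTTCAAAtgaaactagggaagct
Mki67 (chr1:199952674-199952793, minus strand): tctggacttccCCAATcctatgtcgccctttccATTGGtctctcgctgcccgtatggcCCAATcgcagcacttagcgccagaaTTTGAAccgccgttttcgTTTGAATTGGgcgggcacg
Ccnb2 fell from 13.9, 11 and 13.2 CPM to 1.51, 1.92 and 1.68 CPM (log2 fold change -2.91 ± 0.19) and Cdk1 from 55.7, 51.7 and 63.3 CPM to 13, 12.1 and 17.4 CPM (-2.02 ± 0.18). In Mki67 the last CHR match and the last CCAAT match overlap.

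**Figure D5:**
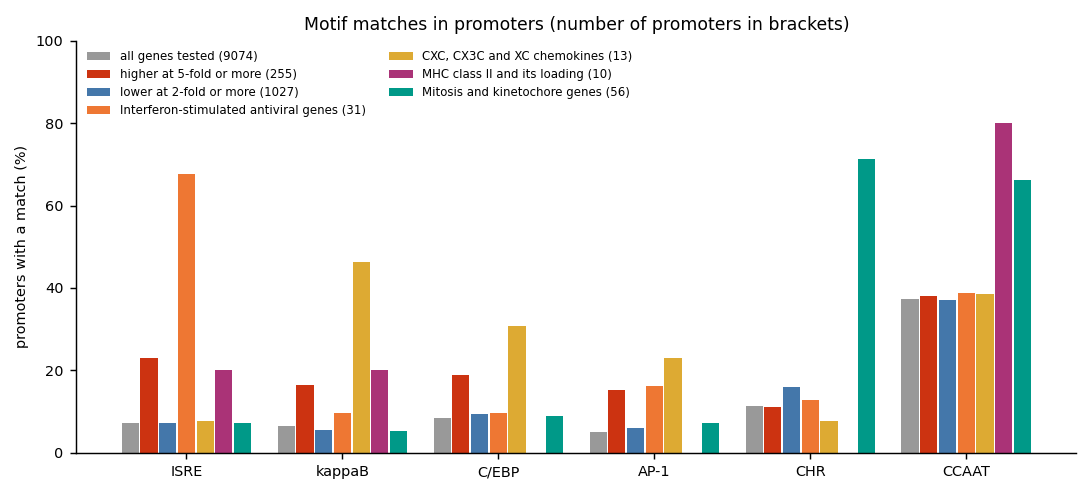
Bars give the percentage of RefSeq promoters (250 bases before to 50 after the start) with at least 1 match to a motif on either strand, for all genes tested, genes higher at 5-fold or lower at 2-fold, and 4 gene lists, with the number of promoters in brackets. ISRE matches stand at 67.7% in the antiviral list, κB matches at 46.2% in the chemokine list and CHR matches at 71.4% in the mitosis list, against 7.12%, 6.41% and 11.4% of all genes tested.

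Brakes of the cell cycle and genes of cell death rose in 17 of 45 members and fell in 3. The CDK inhibitor Cdkn2b rose from 15.3, 18.9 and 18 CPM to 95.1, 106 and 112 CPM (log2 fold change 2.58 ± 0.15), its neighbour Cdkn2a from 1.11, 0.479 and 1.62 CPM to 9.54, 11 and 7.45 CPM (2.88 ± 0.32), and the antiproliferative Btg1 from 122, 129 and 122 CPM to 426, 489 and 502 CPM (1.92 ± 0.13), whereas Cdkn1a, another CDK inhibitor, at 400.5, 199 and 312 CPM and 435, 433 and 376 CPM, was not called. On the death side Bid, which links death receptors to mitochondria, rose from 5.01, 4.31 and 7.39 CPM to 67.9, 62 and 58.9 CPM (log2 fold change 3.4 ± 0.19), and Casp8 (1.76 ± 0.21) and its inhibitor Cflar (1.45 ± 0.18) rose together. Ccnd2 (log2 fold change -0.99 ± 0.18), Gadd45g (-0.91 ± 0.17) and Bmf (-0.81 ± 0.28) fell.

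Growth and neurotrophic factors rose in 14 of 38 members (36.8%) and fell in 8 (21.1%, near the 20.4% of all genes). Angptl4, an inhibitor of lipoprotein lipase, rose from 11.7, 6.94 and 9 CPM to 199.9, 200 and 170.2 CPM (log2 fold change 4.38 ± 0.2), and the binding protein Igfbp3 from 65.1, 75.4 and 40.5 CPM to 459.8, 503 and 538 CPM (3.07 ± 0.21). The stress cytokine Gdf15 and the neuropeptide precursor Vgf rose from 2.23, 0.479 and 4.57 CPM to 61.3, 64.4 and 47.6 CPM and from 119, 41.4 and 119 CPM to 881, 815 and 545 CPM, with control replicate 2 the lowest of the controls in both. Igf1 fell from 20.6, 29.4 and 14.9 CPM to 0.824, 0.404 and 0.36 CPM (log2 fold change -5.18 ± 0.39), and Igfbp5 (-2.13 ± 0.15), the activin subunit Inhbb (-1.8 ± 0.13) and the growth factor pleiotrophin, Ptn, from 2059, 1747 and 1448 CPM to 673, 717 and 775 CPM (-1.28 ± 0.14), fell too. In the TGF-β and BMP pathway 13 of 39 fell, among them Ltbp2 (log2 fold change -2.43 ± 0.23), Tgfbi (-2.89 ± 0.3) and Tgfb1 (-1.25 ± 0.13), and 8 rose (13 without control replicate 2), with the activin trap Fst (2.21 ± 0.16), Ltbp1 (1.57 ± 0.14) and Smad3 (1.37 ± 0.11). Higher members made up 20.5% of the TGF-β list, against 16.5% of all genes, and lower members 33.3%, against 20.4%. Wnt and Hippo genes fell in 13 of 37 (35.1%). The ligands Wnt7a, from 69.8, 55.3 and 70.8 CPM to 16.5, 16 and 15.1 CPM (log2 fold change -2.04 ± 0.15), Wnt5b (-3.84 ± 0.48), Wnt7b (-1.49 ± 0.2) and Wnt5a (-1.39 ± 0.19) and the pathway target Axin2 (-1.05 ± 0.19) fell, and the secreted antagonist Sfrp2 rose from 17.2, 18.9 and 10.5 CPM to 115, 118 and 129.8 CPM (3.01 ± 0.2), with Yap1 (0.8 ± 0.12), Ctnnb1 (0.75 ± 0.17), Fzd7 (0.64 ± 0.2) and Rspo3, at 0.835, 0 and 0.141 CPM and 2.81, 2.02 and 3.36 CPM.

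Lipid genes moved in part. Of 25 genes of cholesterol synthesis and uptake 13 rose and 0 fell, by small steps: Insig1 (log2 fold change 1.29 ± 0.14), Hsd17b7 (1.75 ± 0.21) and Fdft1 (0.89 ± 0.14) among them. Of 40 genes of fatty acid and lipid handling 13 fell (32.5%, against 20.4% of all genes) and 6 rose (15%, near the 16.5% of all genes). The apolipoprotein Apoe fell from 3554, 1560 and 2144 CPM to 1260, 1213 and 1129 CPM (log2 fold change -1.01 ± 0.24), the fatty acid binder Fabp7 (-1.34 ± 0.16), the lipase Lpl (-2.16 ± 0.25) and the desaturase Scd2 (-0.56 ± 0.11) fell with it, and the oxysterol hydroxylase Cyp7b1 rose from 46.2, 57 and 40.4 CPM to 287, 333 and 358 CPM (2.78 ± 0.17), beside the lipid droplet coat Plin2 (1.51 ± 0.13). Glycolysis and hypoxia genes rose in 9 and fell in 4 of 34 (9 lower without control replicate 2), with Hif1a (log2 fold change 1.23 ± 0.2) and Hk2 (1.05 ± 0.15) higher, Pfkm (-1.16 ± 0.13), Pdk1 (-1.46 ± 0.25), Car9 (-2.05 ± 0.26) and Adm (-0.5 ± 0.16) lower, and Gapdh not called (-0.05 ± 0.31). Psat1 and Phgdh, enzymes of serine synthesis, fell, Psat1 from 273, 327 and 229 CPM to 78.6, 88.7 and 93.8 CPM (log2 fold change -1.67 ± 0.16) and Phgdh by a log2 fold change of -1.33.

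Housekeeping lists moved little, and their counts turned on single libraries. Of 71 respiratory chain subunits 8 fell and 0 rose, none by 2-fold, and the count was 2 without control replicate 1 or Aβ42 replicate 2, 3 without Aβ42 replicate 3, 4 without Aβ42 replicate 1, 16 without control replicate 3 and 22 without control replicate 2. Of 76 ribosomal proteins 10 fell and 0 rose, and the count was 1 without control replicate 1, Aβ42 replicate 1 or Aβ42 replicate 2, 3 without Aβ42 replicate 3, 16 without control replicate 3 and 39 without control replicate 2. Copies of ribosomal genes may also share reads. The lower shares of the respiratory and ribosomal lists, 11.3% and 13.2%, lay below the 20.4% of all genes. Of 59 lysosome and autophagy genes 15.3% rose and 6.78% fell, below the 16.5% and 20.4% of all genes. In number 9 rose (15 without control replicate 2, 14 without control replicate 3 and 5 without Aβ42 replicate 2) and 4 fell (10 without control replicate 2, 2 without control replicate 1, Aβ42 replicate 1 or Aβ42 replicate 2, and 1 without Aβ42 replicate 3), with the autophagy receptor Optn (log2 fold change 1.22 ± 0.18) and the protease Ctsb (0.61 ± 0.14) higher and the cholesterol transporter Npc1 (-0.66 ± 0.11) and the proteases Ctsz (-0.59 ± 0.16), Lgmn (-0.37 ± 0.11) and Tpp1 (-0.28 ± 0.1) lower. Of 38 genes of the unfolded protein, amino acid and heat shock responses 12 rose and 4 fell, the latter Psat1, Phgdh, Hspb1 and the mitochondrial chaperone Hspe1 (log2 fold change -0.65 ± 0.19). Ddit3, the CHOP factor, rose from 29.5, 26.8 and 29.1 CPM to 116, 133 and 122 CPM (log2 fold change 2.12 ± 0.13), Atf4 by less (0.76 ± 0.14), and the chaperone Hsp90b1, with the highest CPM of the list, was not called (-0.11 ± 0.099).

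Among AP-1, immediate early and MAP kinase feedback genes 18 of 47 rose and 7 fell. Maff (log2 fold change 3.08 ± 0.21), Ier3 (2.61 ± 0.2), Fosl2 (2.4 ± 0.19) and the C/EBP factors Cebpb (1.9 ± 0.31) and Cebpd (1.66 ± 0.45) rose, while Jun, from 503, 320 and 462 CPM to 246, 233 and 211 CPM (-0.89 ± 0.16), and Egr1 (-0.96 ± 0.25) were lower after 24 h. TTGCNNAA, a loose form of the C/EBP site, and TGANTCA, the AP-1 site, were found in 48 (18.8%) and 39 (15.3%) of the 255 promoters of genes higher at 5-fold, against 8.44% and 4.92% of genes tested. Circadian genes rose in 4 of 16 (25%, against 16.5% of all genes), Bhlhe40 (log2 fold change 1.37 ± 0.12), Nfil3 (1.09 ± 0.12), Ciart (0.66 ± 0.17) and Arntl (0.42 ± 0.13), or in 7 without control replicate 2, and fell in 1, Nr1d1 (-0.54 ± 0.17), which was not called in most fits without a library. Signalling receptors were mixed, 17 higher and 22 lower of 49. The growth factor receptors Met (log2 fold change 1.89 ± 0.19) and Egfr (1.59 ± 0.18) and the UDP receptor P2ry6 (2.1 ± 0.21) rose, and the bradykinin receptor Bdkrb1 was at 0, 0 and 0.0703 CPM and 3.29, 3.54 and 4.2 CPM. The endothelin receptor Ednra (log2 fold change -2.23 ± 0.15), the adrenergic Adra2a, from 46.8, 17.9 and 42.4 CPM to 3.09, 3.44 and 3 CPM (-3.5 ± 0.33), and the neurotrophin receptor Ntrk2 (-0.81 ± 0.1) fell.

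Genes of amyloid production and clearance, the machinery of the peptide added to the dishes, fell in 13 of 38 members (34.2%, against 20.4% of all genes) and rose in 6 (15.8%, near the 16.5% of all genes); without control replicate 2 the counts were 17 and 8. The precursor App was at 761, 738 and 862 CPM and 805, 795 and 743 CPM and was not called (log2 fold change -0.01 ± 0.11), nor were the β-secretase Bace1 (0.28 ± 0.21) and the degrading enzymes Ide (-0.11 ± 0.17) and Mme (0.79 ± 0.34), of which Mme was called higher without control replicate 2 (edgeR adjusted p = 0.00271). The γ-secretase catalytic subunit Psen2 (log2 fold change 1.2 ± 0.15) and the α-secretase Adam17 (1.02 ± 0.12) rose, with the chaperone clusterin, Clu, from 1914, 1504 and 1478 CPM to 2540, 2739 and 2729 CPM (0.71 ± 0.12), and the scavenger receptor Scarb1 (1.22 ± 0.24). The sorting receptor Sorl1, which steers the precursor away from secretases, fell from 129, 155 and 149.7 CPM to 45.9, 45 and 42.4 CPM (log2 fold change -1.7 ± 0.12). Trem2, from 17.2, 7.42 and 19.2 CPM to 0.481, 0.101 and 0.601 CPM (log2 fold change -5.21 ± 0.49), and its adaptor Tyrobp (-3.08 ± 0.26) fell too, and both are microglia markers that moved with that list.

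Several genes with the smallest p-values belong to no list. Ubd, the ubiquitin-like FAT10, rose from 0.557, 0.718 and 0.563 CPM to 94.1, 104 and 95.2 CPM (log2 fold change 7.34 ± 0.19), the activation antigen Cd83 from 16.7, 14.1 and 16.4 CPM to 509, 564 and 564 CPM (5.11 ± 0.14), and Prr16 from 1.39, 1.2 and 1.2 CPM to 81.9, 84.5 and 85 CPM (6.07 ± 0.17). Msln, mesothelin, held 2 counts over the control libraries and 948 with Aβ42 (ratio 317, counting interval 87.6 to 2620). Of the 10 lower genes with the smallest p-values, Gldn, gliomedin, fell from 109, 115 and 107 CPM to 9.13, 10.4 and 8.41 CPM (log2 fold change -3.56 ± 0.14), Lypd1 from 70.1, 67.5 and 67.7 CPM to 9.89, 8.09 and 8.89 CPM (-2.93 ± 0.14), the somatostatin receptor Sstr4 from 25.1, 26.6 and 21.2 CPM to 0.824, 1.31 and 1.32 CPM (-4.42 ± 0.22) and the matrix protein Sned1 from 49.5, 80.7 and 56.4 CPM to 3.16, 3.13 and 3 CPM (-4.32 ± 0.21). Others of the 10 were the microglia markers Csf1r, Fcrl2 (log2 fold change -4.57 ± 0.19) and C1qb, and Pld4, a lysosomal nuclease known from myeloid cells, from 52.3, 40.7 and 47.5 CPM to 0.343, 0.404 and 0.48 CPM (-6.84 ± 0.27). Among lower genes of high CPM not named above, the transmembrane glycoproteins Gpnmb and Gpm6b fell from 1345, 1206 and 1081 CPM to 530.2, 524 and 536 CPM (log2 fold change -1.19 ± 0.11) and from 1177, 1328 and 1162 CPM to 451, 478 and 516 CPM (-1.34 ± 0.11).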

How the data were processed

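RNA-seq was made from poly(A) RNA of cultured cells, in 18 libraries, 9 of astrocytes and 9 of microglia. Per the labels and the study's methods, libraries were stranded, reads were aligned to the rat build rn5 with STAR, and Salmon and DESeq2 were used; versions, the strand setting and the treatment of reads with several matches are not given in the sources used here. The authors deposited raw counts per gene symbol for each library, as whole numbers, not normalized.

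Rows for reads off genes (26.4% to 34.2% of each of the 6 compared libraries) were left out of totals and tests. The 9 astrocyte libraries were fitted together with edgeR 4.0.16 (R 4.3.3, limma 3.58.1; filterByExpr, TMM, quasi-likelihood test, two-sided) and Aβ42 was contrasted with control. Benjamini-Hochberg adjustment ran over the 11690 genes tested. Called means an adjusted p under 0.05. With 3 libraries against 3, an exact permutation test of a single value cannot go below p = 0.1, so none was run. A gene with 3 counts or fewer in every control library counted as being at the detection limit, and its fold, where all were at 0, was set against 3 counts per library. Ratios of summed counts carry 95% exact intervals, which cover counting error only. In data simulated for this comparison on 11690 genes, 62% of 100 genes changed 2-fold, 99% of 100 changed 8-fold and 13 of 11238 unchanged genes were called.

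The gene and marker lists, like the comparison itself, were chosen with earlier results of these data known. Of 1829 list entries 1720 matched a symbol of the tables (28 by synonym), and of 17307 symbols 16949 matched RefSeq. Genes were named by rule: the 10 of smallest p and of highest CPM in each direction at 2-fold, the 10 highest from the detection limit, and in each list the 3 of smallest p in each direction, the one of highest CPM and others by role. Promoter sequences are from RefSeq, build GRCr8, not the authors' rn5, 250 bases before to 50 after each start, for 9074 genes tested. Motifs were searched as printed on both strands, and a base may count for more than 1 motif (CHR and CCAAT matches overlapped in 7 of 425 promoters with both, ISRE and GAS, TTCNNNGAA, in 11 of 64). The labels do not say that replicate numbers pair the samples, so no replicate block was used in the main fit. Alternatives were another normalization, filter, test, set of groups, replicate block, depth and each library left out. Some genes that the rule would name are not reported here.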

Additional observations from a re-analysis of the deposited data

How the results depend on the processing

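Depth limits the genes near the detection limit: 69 genes higher at 5-fold had 3 counts or fewer in every control library, and 125 had 10 or fewer. Of 363 named genes, 320 kept call and direction in all 16 alternatives of the fit that tested them. Requiring 10 counts in every library leaves out the genes that were near 0 in either group, and the genes higher at 2-fold and at 5-fold then numbered 587 and 151 and those lower at 5-fold 164. Under that filter the higher members numbered 5 CXC, CX3C and XC chemokines, 2 CC chemokines, 5 interleukins, 4 of the TNF superfamily, 0 of MHC class II, 2 eicosanoid genes, 6 metalloproteinases, 3 of the plasminogen system, 2 nitric oxide genes, 5 iron genes and 8 growth factors, and the lower members 6 complement genes and 8 of the TGF-β pathway.

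With the 2 compared groups alone, the higher proteasome subunits numbered 3, the lower respiratory subunits 4 and the lower ribosomal proteins 2, of which there were 5 with no filter on low counts. Without the 2 tables of another naming style there were 16 lower respiratory subunits and 30 lower ribosomal proteins. With naming style as a factor, chosen after seeing the data, there were 10 higher proteasome subunits, 14 lower collagens, 20 higher cholesterol genes and 22 higher lysosome genes. DESeq2, in the main design, called 14 higher lysosome genes. The cause of these moves was not tested. With 1 library left out at a time, higher proteasome subunits ranged from 2 to 8, lower collagens from 4 to 13, lower respiratory subunits from 2 to 22, lower ribosomal proteins from 1 to 39, higher lysosome genes from 5 to 15 and higher circadian genes from 3 to 7.

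Deviations of same-numbered control and Aβ42 libraries from their group means correlated at 0.36, -0.17 and -0.4, without a common sign. With 3 libraries per group these correlations depend on each other. They cannot decide whether the replicate numbers mark a shared preparation. Over all pairings the highest correlation was 0.53, between control replicate 2 and Aβ42 replicate 3, the 2 tables of another naming style. The lowest was -0.46, between control replicate 2 and Aβ42 replicate 1. What the style marks is not given in the labels. With the replicate block 2250 genes were called at 2-fold, 2224 of them among the 2316 called without it, and the lower respiratory subunits and ribosomal proteins each numbered 3.

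Without the member of highest CPM, the log2 ratio of summed levels was -1.65 for microglia, -0.99 for fibroblast and -0.8 for neuron markers, the last -0.94 with library totals. Genes higher and lower at 5-fold held 6.98% and 0.146% of the counts with Aβ42. Among genes higher at 2-fold the promoters with a match made up 15.4% for ISRE, 10.4% for κB, 12.5% for C/EBP and 10.6% for AP-1.

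Named genes that were not called and lay near 0 changed sign. App came to 0.01 with no filter on low counts, Gapdh to 0.05 with naming style as a factor, and Pf4 to -0.03 with library totals. Without the 2 tables, Apobec1 came to 0.18, Glul to -0.04, Pf4 to -0.03 and RT1-DMa to 0.08. With 1 library left out at a time the log2 fold change ranged from -0.2 to 0.16 for Apobec1, from -0.05 to 0.06 for App, from -0.03 to 0.21 for Calr, from -0.13 to 0.07 for Canx, from -0.25 to 0.06 for Fth1, from -0.36 to 0.16 for Gapdh, from -0.03 to 0.3 for Glul, from -0.25 to 0.02 for Ide, from -0.09 to 0.34 for Pf4, from -0.86 to 0.04 for RT1-DMa and from -0.24 to 0.01 for Tnfrsf1a. Leaving out 1 library or more ended the call of Adm, Arntl, B3gnt5, Bmf, Ctsz, Efnb1, F3, Fzd7, Gja1, Hspe1, Lgmn, Nr1d1, Ntn1, Odc1, Plaur, Sparc, Tm4sf1 and Tpp1, with edgeR adjusted p from 0.0504 to 0.318, and gave one to Aqp4, Cd80, Cdkn1a, Cxcl14, Map3k14, Mme, Pdia3, Peli1, Ptgs1, Samhd1, Socs3, Tbk1 and Tpx2.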
